A study of Mus musculus with 9 samples.

Results

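The comparison described here set endothelium from the hearts of 22-week BPH/2J mice against endothelium from the hearts of 4-week BPH/2J mice. BPH/2J is an inbred line bred for high blood pressure. The members were the 6 libraries of that line among the 9 of the series, 3 at each age, taken by strain and age as the labels give them. The remaining 3 libraries came from 22-week BPN/3J, the normotensive line, and entered the fit for the estimate of the spread and as levels set side by side. Cells were pulled from fresh heart tissue with magnetic beads and sequenced as polyA RNA. No treatment, transgene or deletion is named for any group. Each blood pressure state is represented by 1 inbred line, and BPN/3J was sampled at 22 weeks only, so age and the time spent with high blood pressure cannot be told apart in these libraries. The sources used here do not say how many mice went into a library or whether the libraries of a group came from separate animals. The p-values therefore rest on the spread between the 3 libraries within each group, BPN/3J included, and part of that spread may be technical.

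The heart of a young mouse still grows, and its capillary bed is extended by division of endothelial cells and by deposition of new basement membrane. In the adult heart most endothelial cells rest, and the capillary wall hands fatty acids and oxygen to the muscle. The genes below follow the order in which a vessel is built: division, growth control, matrix, protein folding, sprouting, then the transport, tone and immune functions of the settled vessel.

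Counts per library ran from 29652150 to 32913813 in the 6 BPH/2J libraries. Of 15277 tested genes, 3039 were called higher (19.9%) and 3218 lower (21.1%) at 22 weeks, 41% in all, where a call is an adjusted p under 0.05 in the quasi-likelihood test of edgeR adjusted by Benjamini-Hochberg over every tested gene. The median log2 change of all tested genes was 0.0050. Calls of 2-fold or more were fewer, with 694 lower (4.54%) and 592 higher (3.88%). Calls of 4-fold or more were mostly falls, with 188 lower and 85 higher. The ranges of the 2 ages did not overlap for 51.2% of tested genes. Most genes named below were chosen among genes without overlap, so separate ranges are not a result about them. The shares of 19.9% higher and 21.1% lower are the background for every list count below, and a count near them does not set a list apart. A pair of libraries stood nearer to the other age than the rest of their group on the first principal component of these 6 libraries, which held 68.9% of the variance. Replicate 1 of the 4-week group lay at 26.9 against 40.6 and 44.1, and replicate 2 of the 22-week group at -27.0 against -43.6 and -40.9. The 4-week replicate 1 also stood alone on the second component and carried 2.63% mitochondrial counts, against 1.19% and 1.33% in its group. Without it 3703 genes were called higher and 3680 lower, without the 22-week replicate 2 the counts were 2748 and 2799, and without both they were 3521 and 3516. Levels are CPM, each count as a share of its library's total in units of 1e+06 reads, after scaling by trimmed mean of M values, and the values of a group are given in the order of its replicates 1 to 3. A log2 change is 22 weeks minus 4 weeks, given with its standard error. RNA here comes from many cells at once, so fewer cells of a type and less RNA per cell cannot be told apart.

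**Figure D1:**
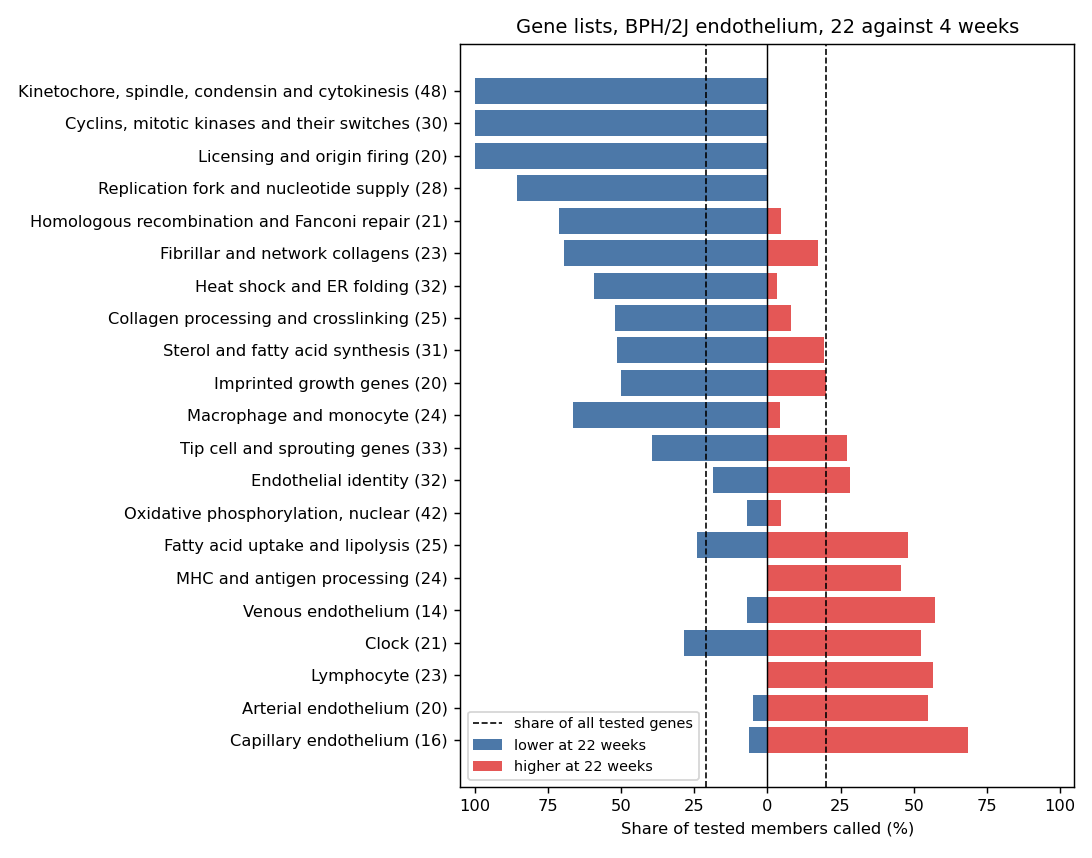
Share of the tested members of 21 gene lists called lower (left) or higher (right) at 22 weeks, with the number of tested members in parentheses and the dashed lines at the shares of all tested genes, 21.1% lower and 19.9% higher. The 4 cell cycle lists at the top lie wholly on the lower side, while the capillary, arterial, lymphocyte and clock lists lie mostly on the higher side.

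Genes of cell division were lower at 22 weeks. A union of 4 lists covered origin licensing, the replication fork, the cyclins with the mitotic kinases, and the kinetochore and spindle. Of its 126 members, all tested, 122 were lower and 0 higher, beside 21.1% and 19.9% of all tested genes. The median log2 change was -2.08, against 0.0050 over all tested genes. The summed level of the union was 4460, 3691 and 4218 CPM at 4 weeks and 1476, 1798 and 1524 CPM at 22 weeks. Falls of 4-fold or more numbered 66, which is 35.1% of the 188 such falls among all tested genes. Without the 4-week replicate 1 the union had 119 lower members, without the 22-week replicate 2 it had 118, and without both 118. The 4 members that were not called were Tipin, Timeless, Pola2 and Rfc2, all of the replication fork, with log2 changes between -0.09 and 0.04.

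Promoter sequences are given for 3 of these genes because they hold letters that textbook accounts place in front of mitotic genes. All 3 hold CCAAT, bound by the factor NF-Y. Cdk1 and Ccnb2 also hold TTTGAA, the core letters of the cell cycle homology region read by the MuvB complexes. In Cdk1 TTTGAA begins 71 bases before the start, between ATTGG at 80 and 48. In Ccnb2 it begins 167 bases before the start, farther out than CCAAT at 87, 54 and 21. Whether the Ccnb2 match is part of such a region was not tested. Each run is taken from the RefSeq promoter table of build GRCm38.p6, reads 5′ to 3′ on the strand of the gene and ends before the start of transcription, with annotated exon bases left out. Capitals mark CCAAT or its reverse complement ATTGG, and TTTGAA or its reverse complement TTCAAA. Cdk1 encodes the mitotic kinase (chr10:69352939-69353162, minus strand), Ccnb2 a cyclin that activates it (chr9:70421555-70421804, minus strand), and Ube2c the ubiquitin conjugase that helps destroy cyclins at the end of mitosis (chr2:164769679-164769897, plus strand).
Cdk1: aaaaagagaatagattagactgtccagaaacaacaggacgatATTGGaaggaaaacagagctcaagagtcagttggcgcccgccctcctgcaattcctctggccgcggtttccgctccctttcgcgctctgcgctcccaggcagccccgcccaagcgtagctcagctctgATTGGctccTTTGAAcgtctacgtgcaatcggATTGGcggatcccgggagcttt
Ccnb2: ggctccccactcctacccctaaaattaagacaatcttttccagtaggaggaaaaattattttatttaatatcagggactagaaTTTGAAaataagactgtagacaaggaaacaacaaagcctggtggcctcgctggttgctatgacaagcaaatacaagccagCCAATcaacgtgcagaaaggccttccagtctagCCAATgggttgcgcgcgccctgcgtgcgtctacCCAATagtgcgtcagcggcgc
Ube2c: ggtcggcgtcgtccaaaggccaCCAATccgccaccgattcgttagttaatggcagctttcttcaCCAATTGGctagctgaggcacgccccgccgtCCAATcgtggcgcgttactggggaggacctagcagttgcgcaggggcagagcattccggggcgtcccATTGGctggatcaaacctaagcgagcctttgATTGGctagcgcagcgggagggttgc
The table held a window for 102 of the 126 members. CCAAT on either strand was found in 67 of these 102, or 65.7%, in 33.8% of all 32851 windows of the table and in 39.9% of the 10617 tested genes with a window, each searched over the 250 bases before the start. TTTGAA on either strand was found in 30, or 29.4%, against 15.99% of all windows and 13.1% of the tested genes. The E2F letters TTTGGCGC or TTTCCCGC on either strand stood in 11, or 10.8%, against 1.30% of all windows and 2.70% of the tested genes. A pair of CCAAT motifs on the same strand whose first bases lie 31 to 33 apart was present in 8 members, or 7.84%, against 0.718% of all windows and 1.47% of the tested genes. All 3 runs shown hold such a pair. These matches describe letters and not binding, and the paired spacing and the 3 runs shown were chosen after the data had been seen.

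**Figure D2:**
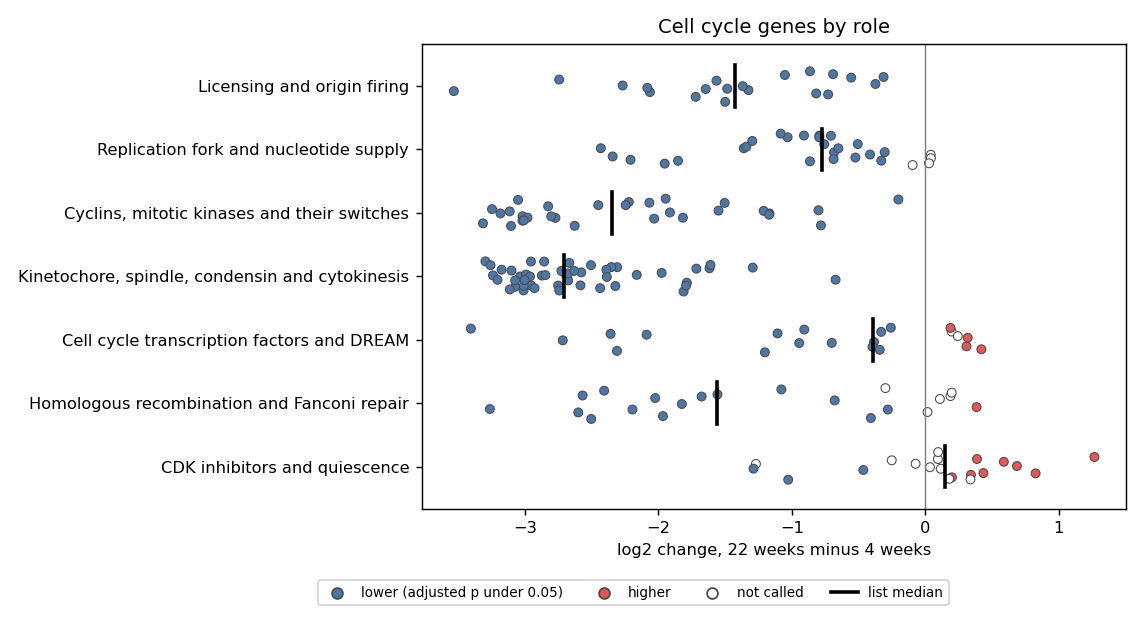
Log2 change of every tested member of 7 cell cycle lists, one point per gene, coloured by call, with the list median as a vertical bar. Medians lie at -2.71 for the kinetochore list, -2.35 for cyclins and mitotic kinases, -1.43 for licensing and -0.78 for the replication fork, while the list of kinase inhibitors and quiescence genes lies at 0.15.

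The fall differed in size between the steps of the cycle. All 20 members of the licensing list, which load and fire the replicative helicase, were lower, with a median log2 change of -1.43. Mcm6, a helicase subunit, stood at 93.3, 78.4 and 89.9 CPM at 4 weeks and 23.7, 32.7 and 27.3 CPM at 22 weeks. The older libraries were all below the younger ones, and Mcm6 fell by 1.65 ± 0.11 on the log2 scale (edgeR adjusted p = 1.16e-05). Ticrr, which is needed to fire origins, held the largest fall of the list at 3.53 ± 0.27, from 4.76, 4.89 and 6.91 CPM to 0.324, 0.611 and 0.483 CPM. Of the 28 genes of the fork and nucleotide supply, 24 were lower and 0 higher (median -0.78). Tyms makes thymidylate and fell by 1.34 ± 0.08 (edgeR adjusted p = 8.17e-06), from 34.6, 31.3 and 34.5 CPM to 12.3, 14.1 and 13.2 CPM. The ranges stood far apart, as they did for Rrm2, the regulated subunit of ribonucleotide reductase, at 46.8, 33.8 and 38.8 CPM against 8.33, 12.5 and 9.96 CPM.

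All 30 cyclins, mitotic kinases and switches were lower, with a median of -2.35, and so were all 48 genes of the kinetochore, spindle, condensin and cytokinesis (median -2.71). Mki67, the proliferation antigen that coats mitotic chromosomes, stood at 209, 175 and 217 CPM at 4 weeks and at 15.3, 39.6 and 19.98 CPM at 22 weeks. The ages did not overlap, and replicate 2 was the highest of the older libraries. Mki67 fell by 3.00 ± 0.33 on the log2 scale (edgeR adjusted p = 7.42e-05). Ccnb1, the cyclin of entry into mitosis, went from 17.4, 13.8 and 17.6 CPM to 1.72, 2.61 and 1.68 CPM. Aurka, a kinase of the spindle poles, went from 15.3, 13.4 and 14.8 CPM to 3.11, 4.02 and 3.22 CPM. Both fell, by 3.02 ± 0.21 and 2.07 ± 0.14 on the log2 scale. Incenp, a scaffold of the chromosomal passenger complex, had the smallest adjusted p of the kinetochore list at 7.49e-06 in edgeR, with 45.8, 40.7 and 47.4 CPM against 13.8, 16.4 and 13.6 CPM. Its fall of 1.61 ± 0.09 was smaller than those of Nuf2 (3.30 ± 0.27), a part of the microtubule-binding NDC80 complex, and of Ncapg (3.24 ± 0.28), a condensin subunit. In the kinetochore list the 22-week replicate 2 was less low than the rest of its group. Its mean log2 deviation from the 6-library mean was -0.76, against -1.47 and -1.37.

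Factors that switch these genes followed them in part. In the list of cell cycle transcription factors and DREAM subunits, 15 of 21 were lower and 4 higher (median -0.39), with 2 higher without the 22-week replicate 1. Foxm1, the activator of mitotic genes, stood at 44.5, 40.8 and 46.7 CPM at 4 weeks and 7.297, 10.9 and 8.41 CPM at 22 weeks. It fell by 2.31 ± 0.15 with no overlap between the ages (edgeR adjusted p = 8.17e-06). Mybl2, its partner on the MuvB core, fell by 2.72 ± 0.29, from 17.1, 13.4 and 15.8 CPM to 1.39, 3.77 and 1.87 CPM. E2f1, an activator of replication genes, went from 28.2, 21.6 and 24.6 CPM to 4.73, 8.01 and 4.74 CPM, and E2f8, a repressor of that family which is itself induced in S phase, fell by 3.41 ± 0.37. The 4 that rose were Rb1, Tfdp2, Lin52 and Rbl2, the last of these a pocket protein of the repressor complex of resting cells. The Rb1 call was lost when any library was left out except the 4-week replicate 1, the 22-week replicate 3 and BPN/3J replicate 3 (edgeR adjusted p up to 0.149). Rbl2 rose by 0.32 ± 0.07, from 30.1, 29.2 and 32.02 CPM to 37.7, 35.6 and 40.6 CPM (edgeR adjusted p = 0.00595). Repair by homologous recombination and the Fanconi pathway, which serves replicating DNA, had 15 of 21 lower and 1 higher, Fancb, whose call was lost without the 4-week replicate 2 or the 22-week replicate 1 (edgeR adjusted p up to 0.0571).

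Inhibitors of the cyclin-dependent kinases moved in both directions, with 8 of 20 members of the list higher and 3 lower. Cdkn1c, the inhibitor p57, stood at 132, 106 and 101 CPM at 4 weeks and 324, 234 and 261 CPM at 22 weeks. The older libraries were all higher, and Cdkn1c rose by 1.27 ± 0.15 on the log2 scale (edgeR adjusted p = 1.32e-04). Cdkn1b, the inhibitor p27, rose by 0.34 ± 0.07, from 99.2, 111 and 109 CPM to 140.3, 131 and 133 CPM. Cdkn1a, the inhibitor p21 and a target of p53, went the other way. Its levels were 121, 147 and 147 CPM at 4 weeks and 59.3, 75.2 and 69.5 CPM at 22 weeks, a fall of 1.03 ± 0.10 (edgeR adjusted p = 3.80e-05), while the 22-week BPN/3J libraries averaged 365 ± 9.67 CPM (mean ± SD, n = 3). Cdkn2c, the inhibitor p18, fell by 1.29 ± 0.10, from 31.3, 26.7 and 31.5 CPM to 11.6, 13.03 and 12.05 CPM. The third member that fell was Gas1, by 0.46 ± 0.14, a call that was lost without the 4-week replicate 3 or the 22-week replicate 2 or 3 (edgeR adjusted p up to 0.0847). Txnip, a brake on glucose uptake, rose by 0.83 ± 0.13, and Gas6, the ligand of the TAM receptors, by 0.69 ± 0.06.

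Imprinted genes and regulators of fetal chromatin were next. Imprinted genes are read from 1 parental copy, and many of them set the pace of growth before and shortly after birth. Of 20 tested, 10 were lower and 4 higher, with a median of -0.52. Mest stood at 503, 441 and 461 CPM at 4 weeks and 52.8, 113 and 69.1 CPM at 22 weeks. The ages did not overlap, replicate 2 was again the highest of the older group, and Mest fell by 2.58 ± 0.24 (edgeR adjusted p = 3.54e-05). Igf2, the fetal insulin-like growth factor, went from 362, 429.6 and 489 CPM to 198, 160.4 and 219 CPM and fell by 1.15 ± 0.14. Its neighbour H19 gave 65.3, 174 and 135 CPM and 77.6, 53.5 and 110.5 CPM. The H19 ranges overlapped and it was not called (log2 change -0.63 ± 0.33, edgeR adjusted p = 0.148). Without the 4-week replicate 1 the H19 change was -0.94 with an adjusted p of 0.00892 in edgeR. Dlk1 was low in all 6 libraries, at 0.457, 0.276 and 0.368 CPM and 0.130, 0.193 and 0.226 CPM, and was not called (edgeR adjusted p = 0.110). Ppp1r9a, a scaffold that binds actin, went from 15.1, 15.9 and 15.9 CPM to 4.02, 3.797 and 3.74 CPM and fell by 2.02 ± 0.12. The 4 that rose were Cdkn1c, Impact, Dcn and Gnas, and the call of Dcn was lost without the 4-week replicate 2 or 3 or the 22-week replicate 1 or 3 (edgeR adjusted p up to 0.0667). Impact, which restrains the amino acid sensor GCN2, rose by 1.15 ± 0.12, from 29.8, 20.5 and 21.98 CPM to 55.97, 50.2 and 54.2 CPM.

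Of 24 tested fetal RNA-binding proteins and chromatin regulators, 13 were lower and 1 higher, Hmga1. The Hmga1 call was lost without the 4-week replicate 1 or 2 or the 22-week replicate 2 or 3 (edgeR adjusted p up to 0.0813), and in the fits on the 6 BPH/2J libraries and with a replicate block (0.0536 and 0.0548). Uhrf1, which brings the maintenance methyltransferase to replicated DNA, stood at 67.2, 64.1 and 77.8 CPM at 4 weeks and 6.52, 13.5 and 8.25 CPM at 22 weeks, a fall of 2.89 ± 0.21 (edgeR adjusted p = 1.45e-05). Dnmt1, that methyltransferase, fell by 0.84 ± 0.07, from 158, 152 and 172 CPM to 86.4, 96.8 and 85.9 CPM. Hells, a remodeler of methylated chromatin, fell by 2.24 ± 0.18. The fetal binding protein Igf2bp3 stayed below 1 CPM in every library and was not called (-0.89 ± 0.41, edgeR adjusted p = 0.108). Hmga2 did not pass the filter on low counts. Of 18 tested genes of the IGF and insulin axis, 4 were higher (22.2%) and 5 lower (27.8%), with a median of 0.02. These shares were near the 19.9% and 21.1% of all tested genes. In that list the receptor Igf2r fell by 0.44 ± 0.09, while the growth hormone receptor Ghr rose by 0.62 ± 0.11 and the insulin receptor Insr by 0.64 ± 0.10.

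**Figure D3:**
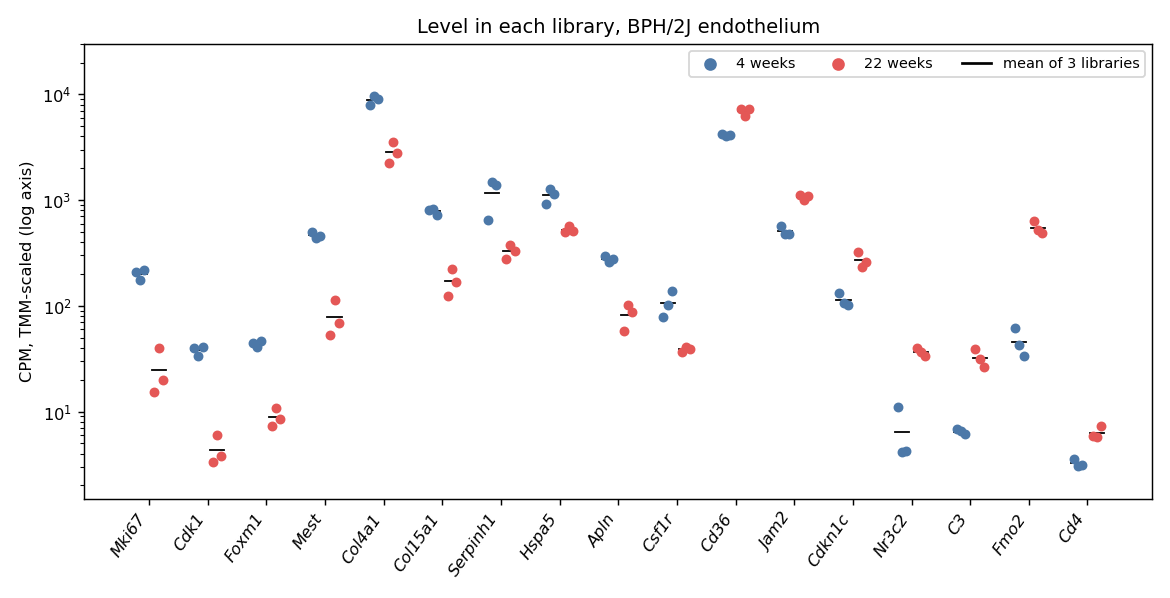
Level of 17 genes named in the text in each of the 6 BPH/2J libraries, in TMM-scaled CPM on a log axis, with a bar at the mean of each age. The older libraries are lower for the genes from Mki67 to Csf1r and higher for those from Cd36 to Cd4. The ages are apart for every gene drawn, but most were named by a rule that required this. Ranges did not overlap for 51.2% of all tested genes.

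Matrix genes were lower too, with the collagen chains leading. Of 23 chains, 16 were lower and 4 higher, and the median was -0.98. Their summed level was 14711 to 16902 CPM at 4 weeks and 4349 to 6702 CPM at 22 weeks, beside 3195 to 3967 CPM in 22-week BPN/3J. Col4a1, a chain of the network under every endothelial cell, stood at 7878, 9602 and 9031 CPM at 4 weeks and 2248, 3532 and 2769 CPM at 22 weeks. The lowest young library was above the highest old one, and Col4a1 fell by 1.63 ± 0.16 (edgeR adjusted p = 4.44e-05). Col4a2, its partner chain, fell by 1.45 ± 0.16, from 4619, 5414 and 5136 CPM to 1421, 2276 and 1845 CPM. The starts of these 2 genes lie 21 bases apart on opposite strands of chromosome 8 in RefSeq, so a single stretch serves both, and the strandedness of the libraries is not given. Col15a1, a collagen of the vessel border, had the largest fall of the list at 2.21 ± 0.20, from 809, 829.6 and 729 CPM to 123, 221 and 169 CPM. The 4 chains that rose were Col4a3, Col4a4, Col8a1 and Col13a1. Col4a4 was called by a narrow margin, and its call was lost without the 4-week replicate 2 or 3 or the 22-week replicate 1 or 3 (edgeR adjusted p up to 0.131). Col4a3 belongs to the other type IV network and went from 9.200, 8.45 and 7.77 CPM to 17.2, 14.03 and 19.2 CPM, a rise of 0.99 ± 0.16. Col8a1 rose by 0.87 ± 0.29 (edgeR adjusted p = 0.0346), but its 4-week replicate 1, at 56.96 CPM, was close to the older libraries at 60.8, 62.01 and 67.3 CPM, and the call was lost when any of the other 5 BPH/2J libraries or BPN/3J replicate 3 was left out, with adjusted p values up to 0.113. The count of 4 higher chains was 2 without the 4-week replicate 2 or 3 or the 22-week replicate 1 or 3.

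Fibrillar chains are made mainly by fibroblasts, and their levels are given with those of fibroblast markers. Col1a1 stood at 86.4, 55.2 and 57.8 CPM at 4 weeks and 23.8, 38.4 and 25.97 CPM at 22 weeks, a fall of 1.18 ± 0.27. Col3a1 went from 289, 188 and 184 CPM to 61.3, 95.6 and 85.4 CPM and fell by 1.45 ± 0.25. In the fibroblast list, which shares these chains, 6 of 20 markers were lower and 6 higher, with a median of 0.08. The 6 lower markers were Col1a1, Col1a2, Col3a1, Postn, Mfap4 and Mfap5, while Pdgfra, Dcn, Gsn, Dpep1, Fbln1 and Thy1 were higher. Matrix proteins were in both groups. Besides Dcn, the calls of Dpep1 and Mfap4 were lost without single libraries, Dpep1 without the 4-week replicate 2 or 3 or the 22-week replicate 1 and Mfap4 without the 22-week replicate 1 or 3 (edgeR adjusted p up to 0.0590 and 0.0605). The summed fibroblast level was 1268, 894 and 885 CPM at 4 weeks and 1014, 892 and 1026 CPM at 22 weeks. Its part in the collagen result was not tested.

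Enzymes that fold, modify and crosslink collagen had 13 of 25 members lower and 2 higher (median -0.32). Serpinh1, the collagen chaperone HSP47, stood at 651, 1483 and 1395 CPM at 4 weeks and 279, 376 and 330.1 CPM at 22 weeks. Replicate 1 of the young group lay well below the other two, yet above all older libraries, and Serpinh1 fell by 1.84 ± 0.26 (edgeR adjusted p = 3.95e-04). Fkbp10, another chaperone of collagen, went from 42.6, 35.8 and 38.00 CPM to 13.5, 15.99 and 16.3 CPM with little spread, a fall of 1.34 ± 0.10. The 2 that rose were Tgm2, tissue transglutaminase, by 0.60 ± 0.16, and Pcolce2, by 0.94 ± 0.26. The Tgm2 call was lost without the 4-week replicate 3 or the 22-week replicate 1, and that of Pcolce2 without the 4-week replicate 2 or 3 or the 22-week replicate 3, with adjusted p values in edgeR up to 0.0599 and 0.0604. Of 21 basement membrane genes other than collagens, 9 were lower and 4 higher. Nid2, a nidogen that links laminin to type IV collagen, fell by 1.45 ± 0.13, from 508, 591 and 602 CPM to 174, 248 and 202 CPM (edgeR adjusted p = 2.59e-05). The laminin chains split. Lamc1 fell by 0.95 ± 0.10 and Lama4, the endothelial alpha chain, by 0.70 ± 0.08, whereas Lama3 rose by 0.70 ± 0.12 and Lamb2, a chain of mature basement membranes, by 0.26 ± 0.07, from 507, 531 and 519.9 CPM to 619.6, 611 and 635 CPM.

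**Figure D4:**
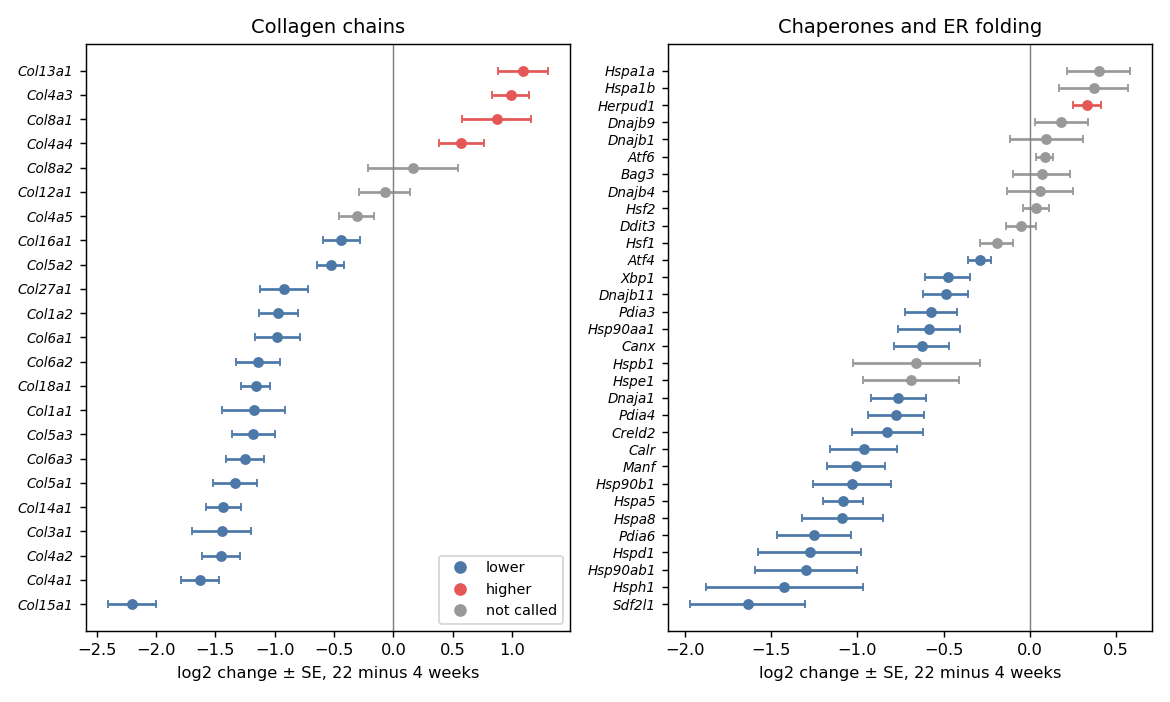
Log2 change with its standard error for each of the 23 collagen chains and the 32 genes of heat shock and protein folding in the endoplasmic reticulum, sorted by size and coloured by call. In both panels the calls lie mostly below 0, with 16 collagen chains and 19 folding genes lower.

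The next list mixes folding genes of the endoplasmic reticulum, where collagen and other secreted proteins fold, with heat shock genes of other compartments. Of 32 genes of heat shock and folding, 19 were lower and 1 higher, with a median of -0.61. Hspa5, the chaperone BiP, stood at 916, 1276 and 1151 CPM at 4 weeks and 504, 568 and 506 CPM at 22 weeks. It fell by 1.08 ± 0.12 with no overlap (edgeR adjusted p = 6.67e-05). Pdia6, a disulfide isomerase, went from 159, 337 and 309 CPM to 104, 116 and 118 CPM, a fall of 1.25 ± 0.22. In both genes replicate 1 of the young group lay nearest to the older libraries. The whole list showed the same order, at -0.09 in that library on the scale of mean log2 deviation, 0.47 and 0.37 in the other young libraries and -0.29 to -0.18 in the older ones. Without that library 22 of the 32 were lower and 2 higher. Manf, a secreted factor of the folding response, fell by 1.01 ± 0.17. The 1 higher member was Herpud1, which helps to clear misfolded proteins. Herpud1 rose by 0.33 ± 0.08, from 105, 116 and 112 CPM to 135, 149 and 135 CPM. Dnajb9, Ddit3 and Atf6 were not called, with log2 changes of 0.18, -0.05 and 0.08. The heat-inducible Hspa1a and Hspa1b were not called, with log2 changes of 0.40 and 0.37, although Hspa1a was called higher without BPN/3J replicate 3 (edgeR adjusted p = 0.0468) and without both libraries that stood apart (0.0455), and reads of these near-identical copies may have been shared out between them. The summed level of the list in 22-week BPN/3J, 12808, 16809.6 and 18685 CPM, was above the 8737, 8828 and 10039 CPM of 22-week BPH/2J.

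The letters of the endoplasmic reticulum stress element, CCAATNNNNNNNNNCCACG on either strand, are shown for the members that hold them because this element is the known switch of BiP and its partners. The search covered the 250 bases before each RefSeq start in GRCm38.p6. Capitals mark the CCAAT and CCACG parts. The coordinates are chr2:34772020-34772048 (Hspa5, plus strand), chr10:86705633-86705661 and chr10:86705528-86705556 (Hsp90b1, minus and plus), chr8:84847070-84847098 (Calr, plus), chr11:50325795-50325823 (Canx, minus), chr12:17266486-17266514 (Pdia6, plus) and chr15:88819515-88819543 (Creld2, minus), each read on the strand that carries CCAAT.
Hspa5: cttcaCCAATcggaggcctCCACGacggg
Hsp90b1, distal site: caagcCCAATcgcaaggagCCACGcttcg
Hsp90b1, proximal site: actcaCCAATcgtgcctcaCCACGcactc
Calr: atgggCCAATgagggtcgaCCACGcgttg
Canx: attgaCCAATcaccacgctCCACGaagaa
Pdia6: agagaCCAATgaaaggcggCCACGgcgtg
Creld2: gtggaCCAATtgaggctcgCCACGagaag
The element stood in 6 of the 26 members with a window and in 0.113% of all windows of the table and 0.151% of the tested genes with a window. All 6 members with it were lower, as were 9 of the 20 without it and 4 of the 6 that had no window. The members without it mix heat shock genes of the cytosol with folding genes such as Pdia4 and Sdf2l1, which were lower. The list was drawn up to hold known carriers of the element, and its part in the falls was not tested. Hsp90b1, the chaperone GRP94, stood at 332, 749 and 687 CPM at 4 weeks and 287, 287 and 290.2 CPM at 22 weeks, a fall of 1.03 ± 0.23. Calr, the lectin calreticulin, fell by 0.96 ± 0.19, Canx, its membrane-bound relative, by 0.63 ± 0.16, and Creld2 by 0.83 ± 0.21. Heat shock genes of the cytosol were divided. Hspa8, Hsp90aa1, Hsp90ab1, Hsph1 and Dnaja1 were lower, while Hspb1, Dnajb1, Dnajb4 and Bag3, like Hspa1a and Hspa1b, were not called. Hspa8 had no window in the table and went from 1208, 2569.7 and 2497 CPM to 966, 1001 and 984 CPM.

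Genes of sprouting were divided. Of 33 tip cell and sprouting genes, 13 were lower and 9 higher, with a median of -0.17. Apln, the peptide apelin made by tip cells, stood at 296, 259 and 277 CPM at 4 weeks and 58.1, 102 and 87.7 CPM at 22 weeks. The ages lay far apart, and Apln fell by 1.75 ± 0.16 (edgeR adjusted p = 3.51e-05). Its receptor Aplnr fell by 0.72 ± 0.13, from 662, 731 and 652 CPM to 365, 498 and 379 CPM, beside 67.3 ± 9.09 CPM (mean ± SD, n = 3) in 22-week BPN/3J. Mcam, an adhesion molecule of growing vessels, fell by 0.84 ± 0.09. Kdr, the main VEGF receptor, was not called, at 2764, 3083 and 3100.4 CPM and 3129.5, 2901 and 2829 CPM, with a log2 change of -0.01 ± 0.10 (edgeR adjusted p = 0.923). Esm1, another gene of tip cells, went against Apln. It rose by 1.00 ± 0.16, from 24.4, 18.7 and 15.04 CPM to 35.3, 37.6 and 43.2 CPM, while 22-week BPN/3J averaged 8.93 ± 1.19 CPM (mean ± SD, n = 3). Igfbp3, which binds insulin-like growth factors, rose by 0.86 ± 0.10.

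Guidance receptors showed the same division, with 10 of 33 lower and 10 higher. Robo1, a receptor for Slit, stood at 11.03, 8.17 and 10.4 CPM at 4 weeks and 1.39, 1.899 and 1.68 CPM at 22 weeks, a fall of 2.57 ± 0.27 (edgeR adjusted p = 5.95e-05). The semaphorin Sema6d and the plexin Plxna1 fell by 0.89 ± 0.07 and 0.96 ± 0.12. Sema6a rose by 0.66 ± 0.09, and Ntn1, the secreted cue netrin, by 0.84 ± 0.11, from 42.6, 49.3 and 51.4 CPM to 87.3, 74.3 and 93.98 CPM. In Tie, TGF-beta and BMP signalling, 12 of 31 were higher and 6 lower (median 0.20). Acvrl1, the endothelial BMP receptor ALK1, rose by 0.49 ± 0.06, from 252, 259.8 and 281 CPM to 369, 362 and 384 CPM, with an edgeR adjusted p of 1.82e-04. Tgfb1 and Bmp2, 2 ligands, fell by 0.39 ± 0.07 and 0.83 ± 0.16. Of 30 Wnt genes, 8 were higher and 1 lower, Nkd1, whose call was lost when any library was left out except the 4-week replicate 1 and BPN/3J replicate 1 (edgeR adjusted p up to 0.205). Tcf7, a nuclear partner of beta-catenin that T cells also express, rose by 0.94 ± 0.16, and Rspo1, which amplifies Wnt signals, by 1.34 ± 0.20.

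General endothelial markers were present at both ages. Cdh5, endothelial cadherin, stood at 3287, 3149.8 and 3107 CPM at 4 weeks and 2853, 3257 and 3037 CPM at 22 weeks and was not called (-0.06 ± 0.08, edgeR adjusted p = 0.574). Pecam1 was not called either (-0.06 ± 0.07, edgeR adjusted p = 0.555). Of 32 identity genes, 9 were higher (28.1%) and 6 lower (18.75%), with a median of 0.07, beside 19.9% and 21.1% of all tested genes. Cd93 and the tight junction protein Cldn5 fell by 0.82 ± 0.08 and 0.66 ± 0.10, and Emcn, a sialomucin of capillaries and veins, rose by 0.67 ± 0.11, from 442, 452 and 372 CPM to 741, 616 and 656 CPM. Of 16 capillary markers 11 were higher and 1 lower, Sgk1, whose call was lost when any library was left out except the 4-week replicate 1 and BPN/3J replicates 1 and 3 (edgeR adjusted p up to 0.154). Of 14 venous markers 8 were higher and 1 lower, Nrp2, which fell by 0.73 ± 0.10. The endocardial marker Npr3 stood at 146, 88.5 and 194 CPM at 22 weeks, with replicate 2 the lowest of the group. The endocardial list lay at a mean log2 deviation of -0.11 in that library and at 0.33 and 0.62 in the other older libraries, and without it 11 of 16 markers were higher in place of 8.

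Genes of fatty acid transport rose in part. Of 25 genes of uptake and lipolysis, 12 were higher and 6 lower, with a median of 0.29. Cd36, the fatty acid translocase, stood at 4265, 4011 and 4114 CPM at 4 weeks and 7281, 6300.1 and 7266 CPM at 22 weeks. All older libraries were higher, and Cd36 rose by 0.75 ± 0.09 (edgeR adjusted p = 1.83e-04). Gpihbp1, which anchors lipoprotein lipase on capillaries, rose by 0.29 ± 0.09 (edgeR adjusted p = 0.0299), a call that was lost without the 4-week replicate 2 or 3 or the 22-week replicate 1 or 3, with adjusted p values up to 0.0971. The lipases Pnpla2 and Lipe, which release stored fat, rose by 0.65 ± 0.06 and 0.49 ± 0.08. Meox1, a homeobox gene, went down. It stood at 141, 130.3 and 134 CPM and then at 38.5, 69.8 and 43.9 CPM, a fall of 1.42 ± 0.18. In the list of sterol and fatty acid synthesis 16 of 31 were lower and 6 higher (median -0.35). Sqle, an early enzyme of the cholesterol branch, went from 14.5, 14.2 and 16.5 CPM to 6.62, 6.79 and 7.44 CPM and fell by 1.11 ± 0.12. The fatty acid desaturase Scd1 rose by 1.51 ± 0.23, from 14.8, 8.24 and 7.58 CPM to 30.7, 23.2 and 33.4 CPM, and Acacb, the carboxylase that restrains fatty acid oxidation, by 1.00 ± 0.10.

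Lists of energy metabolism differed in how many members were called. In fatty acid oxidation 10 of 30 were higher and 3 lower. The count of higher genes was 15 without the 4-week replicate 1, 17 without both libraries that stood apart, 5 without the 4-week replicate 2, and 6 without the 4-week replicate 3 or the 22-week replicate 1. Acaa2, the thiolase of the mitochondrial pathway, rose by 0.74 ± 0.13, from 58.4, 39.6 and 43.6 CPM to 83.1, 69.8 and 84.4 CPM. Glycolysis had 12 of 27 lower and 4 higher, with 7 higher without the 4-week replicate 1. Ldha, lactate dehydrogenase A, stood at 527, 615 and 649 CPM at 4 weeks and 384, 389.8 and 369 CPM at 22 weeks, a fall of 0.65 ± 0.08 (edgeR adjusted p = 1.89e-04). Pgk1 and Pgam1, 2 enzymes of the lower pathway, fell by 0.46 ± 0.05 and 0.38 ± 0.05. Pfkfb3, whose product drives glycolytic flux, rose by 1.04 ± 0.11, from 64.6, 65.8 and 53.9 CPM to 119.8, 114 and 145 CPM. Pdk1, which diverts pyruvate from the mitochondria, rose by 1.14 ± 0.14. Of 42 nuclear genes of oxidative phosphorylation, 2 were higher, Sdha and Ndufs7, and 3 lower, Atp5b and Uqcrc1 among them, with a median of 0.01 and all 5 changes below 0.4 in size. The Uqcrc1 call was lost when any library was left out except the 4-week replicate 2 and BPN/3J replicates 2 and 3 (edgeR adjusted p up to 0.0967), with a replicate block (0.0563) and with upper-quartile scaling (0.0661). The number higher was 8 without the 4-week replicate 1, and the number lower was 5 without the 4-week replicate 2. Of 49 cytosolic ribosomal protein genes, 9 were higher and 1 lower. That count was 30 without the 4-week replicate 1, 31 without both libraries, 17 without BPN/3J replicate 3, and 1 without the 4-week replicate 2 or 3 or the 22-week replicate 1 or 3. Reads of these genes can be shared with their many pseudogenes.

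Genes that set vascular tone had 15 of 40 higher (37.5%) and 9 lower (22.5%), beside 19.9% and 21.1% of all tested genes. The count of lower genes was 5 without the 4-week replicate 3 or the 22-week replicate 2. Edn1, the constrictor endothelin, stood at 40.9, 29.8 and 31.00 CPM at 4 weeks and 60.5, 51.8 and 61.6 CPM at 22 weeks, a rise of 0.77 ± 0.20 (edgeR adjusted p = 0.0105). Its clearing receptor Ednrb rose by 0.58 ± 0.07, from 94.5, 92.7 and 83.8 CPM to 137, 128 and 142 CPM. The older libraries were higher without overlap in both. Ace, which makes angiotensin II, rose by 0.75 ± 0.11, from 184, 143 and 156 CPM to 256, 276 and 281 CPM (edgeR adjusted p = 5.31e-04). Nos3, endothelial nitric oxide synthase, fell by 0.27 ± 0.08, from 298, 351 and 363 CPM to 268, 286 and 287 CPM. That call, at an edgeR adjusted p of 0.0175, was lost without the 4-week replicate 2 or 3 or the 22-week replicate 1, with values up to 0.0913. Ptger4, a prostaglandin E2 receptor, rose by 1.42 ± 0.16, from 14.4, 11.9 and 9.88 CPM to 35.8, 27.8 and 33.3 CPM, and Ptgs1, which makes prostaglandins, by 0.52 ± 0.08.

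Of 40 channel, pump and connexin genes, 14 were lower (35%) and 10 higher (25%), beside 21.1% and 19.9% of all tested genes. Without the 4-week replicate 2, 5 were higher. Piezo2, a channel opened by stretch, stood at 16.4, 14.96 and 13.7 CPM at 4 weeks and 4.64, 5.31 and 3.71 CPM at 22 weeks, a fall of 1.72 ± 0.19 (edgeR adjusted p = 7.58e-05). Orai1, the channel of store-operated calcium entry, and Slc12a2, a chloride cotransporter, fell by 0.64 ± 0.07 and 0.86 ± 0.12. The calcium pump Atp2a3 rose by 1.21 ± 0.14, from 90.8, 63.05 and 67.6 CPM to 186, 151 and 175 CPM. Itpr3, which releases stored calcium, rose by 0.67 ± 0.07, and the water channel Aqp1 by 0.80 ± 0.14. Slc12a2 averaged 274 ± 12.4 CPM (mean ± SD, n = 3) in 22-week BPN/3J, above both ages of BPH/2J, at 80.5, 115 and 98.4 CPM and 50.6, 60.1 and 50.9 CPM.

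Steroid receptors and their targets included 1 of the largest rises. Nr3c2, the mineralocorticoid receptor that aldosterone binds, stood at 10.99, 4.102 and 4.27 CPM at 4 weeks and 39.8, 36.7 and 33.6 CPM at 22 weeks. The older libraries were tightly grouped, replicate 1 was the highest of the younger ones, and Nr3c2 rose by 2.51 ± 0.29 (edgeR adjusted p = 1.09e-04). The 22-week BPN/3J level was 36.7 ± 1.06 CPM (mean ± SD, n = 3). In the list of glucocorticoid targets 8 of 24 were higher (33.3%) and 5 lower (20.8%), with a median of 0.11. The lower share was near the 21.1% of all tested genes. The lower count was 2 without the 22-week replicate 2 and 3 without the 4-week replicate 3 or the 22-week replicate 1. Klf15, a factor of metabolic genes, rose by 1.82 ± 0.16, from 1.83, 1.14 and 1.66 CPM to 5.77, 5.503 and 5.12 CPM. Fkbp5, a cochaperone of the receptor and a common readout of its activity, fell by 1.06 ± 0.20, from 65.3, 88.5 and 97.99 CPM to 40.4, 47.9 and 32.4 CPM. Of 29 immediate early genes, the quick responders to growth factors and tissue handling, 3 were lower, Maff, Fosl2 and Dusp1, and 1 higher, Ctgf. The call of Ctgf was lost without the 4-week replicate 2 or 3 or the 22-week replicate 1 or 3, and that of Dusp1 without the 4-week replicate 2 or 3 or the 22-week replicate 1 or 2 (edgeR adjusted p up to 0.0974 and 0.129). Their summed level was 10398, 7754 and 7489 CPM at 4 weeks and 7733, 7848 and 8887 CPM at 22 weeks. Replicate 1 of the young group was the highest, and without it 7 members were higher.

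Clock genes changed in both directions. Of 21, 11 were higher and 6 lower, and the median of 0.42 stood beside 0.0050 for all tested genes. The number lower was 3 without the 4-week replicate 3 or the 22-week replicate 1 or 2. The subunits of the activating complex fell. Arntl, the BMAL1 subunit, stood at 7.18, 11.4 and 12.1 CPM at 4 weeks and 2.79, 3.67 and 3.16 CPM at 22 weeks, a fall of 1.67 ± 0.22 (edgeR adjusted p = 2.42e-04). Its partner Clock fell by 0.46 ± 0.09, from 113, 144 and 137 CPM to 98.1, 98.1 and 89.7 CPM, and Npas2, an alternative partner, by 1.30 ± 0.33. Several repressors and outputs rose. Per3 went from 64.2, 62.3 and 55.9 CPM to 109, 119 and 105 CPM, a rise of 0.87 ± 0.08. Nr1d2, the repressor REV-ERB beta, rose by 0.76 ± 0.07, and Rora, an activator that opposes it on the Arntl gene, also rose, by 1.08 ± 0.07, from 19.1, 21.3 and 18.02 CPM to 42.1, 40.7 and 40.7 CPM. Bhlhe41, a further repressor, rose by 2.42 ± 0.23, from 3.197, 2.14 and 2.52 CPM to 13.8, 9.85 and 18.4 CPM. The sources used here do not give the hour at which tissue was taken.

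Immune genes included markers of cells other than endothelium. Of 24 macrophage and monocyte markers, 16 were lower and 1 higher, Ly6c2, with a median of -1.12. The Ly6c2 call was lost without the 4-week replicate 2 or the 22-week replicate 3 (edgeR adjusted p up to 0.0538). Csf1r, the receptor on which macrophages depend, stood at 78.8, 101 and 137 CPM at 4 weeks and 36.8, 40.5 and 39.2 CPM at 22 weeks, a fall of 1.44 ± 0.21 (edgeR adjusted p = 3.97e-04). Mrc1, the mannose receptor of resident macrophages, fell by 1.51 ± 0.22, from 55.4, 66.98 and 102 CPM to 26.3, 27.96 and 24.8 CPM, and Cd68, a lysosomal protein, by 0.99 ± 0.11. The young libraries were spread widely and the old ones were alike. The summed level of the markers was 549.9, 779 and 1032 CPM at 4 weeks and 309.5, 345 and 358 CPM at 22 weeks. In 22-week BPN/3J it was 927, 593 and 652 CPM, above the 22-week BPH/2J libraries. Lyz2, the most abundant of the list, was at 134, 198 and 273 CPM and 78.4, 91.7 and 106 CPM. Each of the 24 markers had more than 3 counts summed over the libraries of at least 1 age. Lymphocyte markers were higher, with 13 of 23 higher, 0 lower and a median of 0.95. Cd4, a T cell coreceptor, rose by 0.96 ± 0.14, from 3.56, 3.03 and 3.100 CPM to 5.805, 5.696 and 7.31 CPM (edgeR adjusted p = 4.38e-04). Trac, the constant part of the T cell receptor alpha chain, rose by 1.02 ± 0.16, and Cd8b1 by 1.48 ± 0.29. The lymphocyte sum was 170.5, 112 and 115 CPM at 4 weeks and 199, 141 and 294 CPM at 22 weeks. The sums of the 2 ages overlapped. Ighm, the heavy chain of B cells and the most abundant of the list, was not called, at 63.5, 38.7 and 43.8 CPM and 61.1, 36.6 and 88.2 CPM. Ighm was called higher without the 22-week replicate 2 (log2 change 0.62, edgeR adjusted p = 0.0370) and without both libraries that stood apart (0.86, 0.00113).

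Other immune lists are given beside those values. Of 24 genes of MHC and antigen processing, 11 were higher and 0 lower. The count was 3 without the 4-week replicate 3 or the 22-week replicate 3 and 7 without the 22-week replicate 1. H2-T23, a nonclassical class I gene, stood at 104, 102 and 94.3 CPM at 4 weeks and 212, 203 and 202 CPM at 22 weeks, a rise of 1.04 ± 0.15 (edgeR adjusted p = 4.52e-04). Tapbp, which loads peptide on class I, rose by 0.38 ± 0.07. The class II genes H2-Aa, H2-Ab1 and Cd74, which B cells and other presenting cells express, rose by 1.11 ± 0.30, 1.08 ± 0.32 and 0.77 ± 0.27. The Cd74 call was lost without the 4-week replicate 1 or 3, the 22-week replicate 1 or 3 or BPN/3J replicate 2 (edgeR adjusted p up to 0.173) and with a replicate block (0.0669). The calls of H2-Aa and H2-Ab1 were lost without replicate 3 of either age (0.0569 and 0.0789 at most). For H2-Aa the levels were 12.2, 13.4 and 8.96 CPM and 21.4, 18.8 and 34.2 CPM, with replicate 3 the lowest young and the highest old library. That replicate was also the highest of the older libraries for lymphocyte markers, whose part in this result was not tested. H2 genes resemble each other, and reads may have been shared between them.

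Complement and coagulation had 9 of 29 higher and 9 lower. C3, the central complement protein, stood at 6.79, 6.48 and 6.08 CPM at 4 weeks and 38.9, 31.6 and 26.4 CPM at 22 weeks. Spread was small within each age, and C3 rose by 2.32 ± 0.14 (edgeR adjusted p = 7.77e-06). Cd59a, which shields cells from the membrane attack complex, rose by 0.85 ± 0.09. The urokinase gene Plau and the tissue activator Plat, both of which activate plasminogen, fell by 0.94 ± 0.13 and 0.63 ± 0.08, and their docking partner S100a10 by 0.61 ± 0.11. C1qa, C1qb and C1qc fell by 1.73 ± 0.33, 1.79 ± 0.35 and 1.85 ± 0.37. These 3 are macrophage products and are counted among the macrophage markers above as well, and the part of macrophage RNA in their change was not tested. Of 29 adhesion molecules and chemokines, 11 were higher and 8 lower, and 7 were higher without the 22-week replicate 3. Jam2, a junctional adhesion molecule, rose by 1.08 ± 0.10, from 563, 481 and 479 CPM to 1127, 1003 and 1088 CPM (edgeR adjusted p = 3.47e-05), and Jam3 by 0.88 ± 0.12. The neutrophil attractant Cxcl2 fell by 1.57 ± 0.21, from 29.6, 37.3 and 36.1 CPM to 9.405, 13.97 and 11.2 CPM, and Madcam1, a docking molecule for gut lymphocytes present at about 1 CPM or less, by 2.67 ± 0.31. Interferon-stimulated genes did not lean either way, with 7 of 41 higher and 9 lower. Without the 4-week replicate 1 the counts were 7 and 15, and without both libraries that stood apart 4 and 18. The lower count was 5 without the 4-week replicate 2 or 3 or the 22-week replicate 3, and the higher count was 3 without the 4-week replicate 3 or the 22-week replicate 2 and 4 without the 22-week replicate 1. Isg15 fell by 0.49 ± 0.09, and Ly6a, the surface protein Sca-1, rose by 0.59 ± 0.10.

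**Figure D5:**
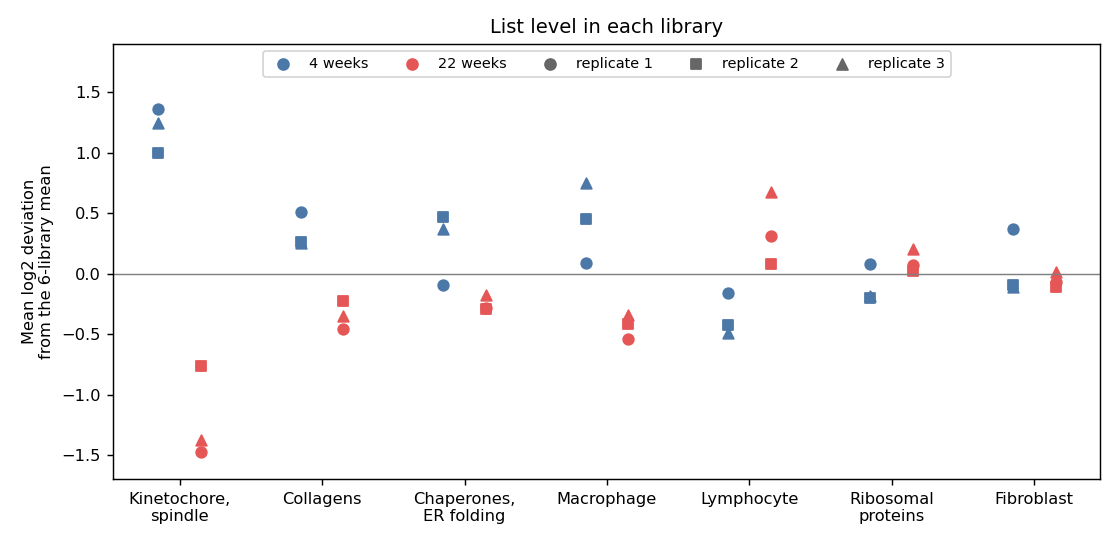
Mean log2 deviation of 7 gene lists from their 6-library mean in each BPH/2J library, by age (colour) and replicate (shape). Replicate 1 of the 4-week group lies apart from its group for chaperones, ribosomal proteins and fibroblast markers, and replicate 2 of the 22-week group is the least low of its age for the kinetochore list.

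The remaining cell types changed less. Of 25 cardiomyocyte markers, 3 were higher, Myh6, Myh7 and Mybpc3, and 1 lower, Atp2a2, which other cells also express. The sum was 1097, 934 and 1008 CPM at 4 weeks and 1062, 922 and 977 CPM at 22 weeks. Myh6, the adult myosin heavy chain, rose by 0.58 ± 0.15, from 56.05, 34.7 and 43.7 CPM to 62.4, 74.2 and 63.9 CPM. The number of higher markers was 9 without the 4-week replicate 1 and 1 without the 4-week replicate 2 or 3 or the 22-week replicate 1 or 3. The calls of Myh7 and Mybpc3 were lost in those 4 cases (edgeR adjusted p up to 0.113 and 0.114), and that of Myh7 also without the 22-week replicate 2. The pericyte and smooth muscle list had 1 of 18 members higher, Higd1b, and 2 lower, Abcc9 and Cspg4, with 4 lower without the 4-week replicate 2 or the 22-week replicate 1. The Higd1b call was lost without the 4-week replicate 1 or 2 or the 22-week replicate 1 (edgeR adjusted p up to 0.131) and with a replicate block (0.0520). Rgs5, the most abundant, was not called, at 935, 757 and 868 CPM and 834, 699 and 795 CPM. Of 9 lymphatic markers 2 were lower, Nts and Itga9, and 0 higher, while Flt4 was not called (-0.19 ± 0.14, edgeR adjusted p = 0.317). Without the 4-week replicate 1 the list had 4 lower members and Flt4 was lower, with an adjusted p of 0.00735 in edgeR. Of 14 markers of neutrophils, platelets and red cells, S100a8, S100a9 and Retnlg of neutrophils were higher and Pf4, which platelets and some macrophages make, was lower. The S100a8 call was lost without the 4-week replicate 1 or 2 or the 22-week replicate 1 or 2 (edgeR adjusted p up to 0.112), and without both libraries that stood apart its log2 change was 1.30 in place of 1.93 ± 0.65. Pf4 went from 26.6, 15.4 and 19.7 CPM to 9.08, 6.95 and 7.57 CPM. Of 9 tested markers of Schwann cells, adipocytes and epicardium, 2 were higher, Cdh19 and Mbp, and 2 lower, Wt1 and Krt19, with a median of 0.44. The call of Cdh19 was lost without the 4-week replicate 2 or the 22-week replicate 1, and that of Mbp without the 22-week replicate 3 (edgeR adjusted p up to 0.0668 and 0.0700). Wt1, which marks the epicardium and is also known from cardiac endothelial cells, was at 93.01, 114 and 111 CPM and 56.9, 61.1 and 46.4 CPM and fell by 0.95 ± 0.11.

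Among the 12 largest rises were genes of retinoid, xenobiotic and one-carbon metabolism. Fmo2, a flavin monooxygenase, stood at 61.2, 42.9 and 33.2 CPM at 4 weeks and 636, 527 and 484 CPM at 22 weeks, a rise of 3.59 ± 0.20 (edgeR adjusted p = 7.49e-06). Prg4, the lubricating proteoglycan, had the least spread, at 5.81, 5.14 and 4.76 CPM and 53.7, 53.7 and 58.9 CPM, a rise of 3.40 ± 0.10 (edgeR adjusted p = 7.51e-08). Cyp26b1, which degrades retinoic acid, had the largest fitted rise at 4.64 ± 1.17, but its levels of 3.62, 8.93 and 2.33 CPM and 322, 30.1 and 13.8 CPM rested on 1 far higher old library. Its call (edgeR adjusted p = 0.00973) was lost in limma-voom, where the adjusted p was 0.106. Aldh1l1, of folate metabolism, and Gstt1, a glutathione transferase, rose by 3.31 ± 0.35 and 2.59 ± 0.20. Spock2, a matrix proteoglycan, and Adam22, a catalytically inactive disintegrin, rose by 2.36 ± 0.16 and 2.33 ± 0.13, and Tmem182 by 2.42 ± 0.20. Serpina1e, of a family of near-identical copies, rose by 3.02 ± 0.46, with an uncertain split of reads. The remaining 3 were Nr3c2, Bhlhe41 and C3.

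The 12 largest falls were mostly mitotic genes. Troap, a spindle protein, fell by 3.53 ± 0.30, from 10.6, 8.997 and 10.8 CPM to 0.584, 1.32 and 0.709 CPM. Ticrr, Ska1, E2f8, Pbk, Nuf2, Depdc1a, Kif14, Ube2c and Ncapg followed at falls between 3.24 ± 0.28 and 3.53 ± 0.27. The other two are genes of the matrix. Tnc, the glycoprotein tenascin C, went from 30.7, 46.9 and 59.1 CPM to 3.44, 5.37 and 3.71 CPM, and Adamts17, a secreted metalloprotease, from 20.7, 22.8 and 19.7 CPM to 1.33, 2.93 and 2.22 CPM, a fall of 3.28 ± 0.30. Ska1, Pbk and Depdc1a fell by 3.43 ± 0.27, 3.32 ± 0.31 and 3.28 ± 0.36.

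Levels in 22-week BPN/3J are set beside the largest changes as a description, and BPN/3J was not sampled at 4 weeks. The summed cell cycle union was 1593, 1532 and 1617 CPM in BPN/3J and 1476, 1798 and 1524 CPM in 22-week BPH/2J. For Mki67 the BPN/3J mean was 17.5 ± 5.99 CPM (mean ± SD, n = 3), within the range of the 22-week BPH/2J libraries at 15.3, 39.6 and 19.98 CPM. Mest was at 53.7 ± 10.6 CPM in BPN/3J, Arntl at 2.26 ± 0.471 CPM, and Apln at 50.1 ± 4.13 CPM (mean ± SD, n = 3 each). Fmo2 and Prg4 were at 921 ± 33.7 CPM and 92.8 ± 9.31 CPM there, above the 22-week BPH/2J libraries. Serpina1e was at 0.404 ± 0.258 CPM in BPN/3J, in the range of 4-week BPH/2J.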

How the data were processed

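The authors deposited a table of 18094 genes with raw counts per library, CPM, and log2 fold changes and p-values of their own comparisons. Per the file headers and values, the deposited CPM are counts over the column total. The deposited log2 values, p-values and CPM were not used. The submitters' processing notes name build mm9, TopHat2 2.0.13, Bowtie2, Subread featureCounts and edgeR, without settings. The sources used here do not give strandedness. Libraries were grouped by strain and age in the labels, and depth was 28806840 to 32913813 counts.

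The counts of all 9 libraries were fitted on group in edgeR 4.0.16 (R 4.3.3) after filterByExpr and TMM scaling, with the quasi-likelihood F test, two-sided, of 22-week against 4-week BPH/2J, and Benjamini-Hochberg adjustment over 15277 genes. Standard errors are the absolute log2 change over the square root of F. A count of 3, the upper 95% limit of a count of 0, is 0.0911 to 0.104 CPM and covers counting error only. List deviations used log2 of CPM plus 0.5. A spreadsheet had turned 21 symbols into dates, which were restored through their identifiers, and 854 genes had no symbol.

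The comparison, its 46 gene lists and the named genes were chosen with earlier results of these data known, so lists carry no test of their own. Named genes are the 12 largest rises and falls among called genes with at least 5 CPM in the higher group and no overlap. From each list came the 3 called members of smallest adjusted p in each direction, again only among genes whose ranges did not overlap. Added to these were 27 genes taken regardless of outcome and, from every list of another cell type, its most abundant marker. Members named beyond that rule were chosen after their values were seen. Promoters come from RefSeq (GRCm38.p6), matched by gene identifier where possible and otherwise by symbol. For 10617 of 15277 tested genes a window was found, and shares are set against all windows of the table and against these genes. The fit was also run on simulated counts in which few genes changed. That run does not show how the fit behaves where 41% of genes are called, as here. Same-numbered libraries of the 2 ages had residual correlations of -0.03, 0.08 and -0.05, so numbers were not taken as pairs. Alternatives were other scalings and filters, DESeq2 1.42.0, limma-voom (limma 3.58.1), the 6 BPH/2J libraries alone, a replicate block, a threshold of 0.01 and leaving out each library. The fit without both libraries that stand apart and the fit with the legacy setting off were chosen after seeing the data.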

Additional observations from a re-analysis of the deposited data

How the results depend on the processing

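No gene was called in the opposite direction under any alternative. At an adjusted p threshold of 0.01, 1789 genes were higher and 2082 lower. Leaving out each library gave 2235 to 3703 higher and 2359 to 3680 lower genes. A fit with the replicate number as a block called 2789 higher and 2969 lower genes. The other alternatives gave 2702 to 3521 higher and 2953 to 3516 lower. Of 53 list counts of at least 5 calls, 20 shrank by over 1.5 times at the threshold of 0.01, 8 without the 4-week replicate 3 and 6 without the 22-week replicate 1, and 2 grew without the 4-week replicate 1. The 4 cell cycle lists together had 117 to 122 lower members under these alternatives. Genes below 1 CPM, such as Dlk1 and Igf2bp3, rest on few counts, and a change in them may not be detectable at this depth.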
